A study of Bos taurus with 9 samples.

Results

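The growth-factor ligands FGF2, FGF10, VEGFA, VEGFC, HGF, EGF and AREG were examined in bovine endometrial cells exposed to lysophosphatidic acid (LPA), with or without interferon tau (IFNt). All probe sets that the annotation of an Affymetrix bovine array assigned to one of these symbols alone were taken, which gave 11 of the 24016 probe sets tested, for 7 of 9155 named genes. The cultures were stromal and epithelial cells of Holstein/Polish Black and White cows early in the oestrous cycle (days 2 to 5), seeded together at 3 to 1 and exposed for 6 h. The groups, with 3 arrays each, were LPA+IFNt (1e-06 M LPA as 1-oleoyl-sn-glycerol 3-phosphate, with 1000 antiviral units of IFNt, no volume stated), LPA (1e-06 M LPA alone) and control (phosphate-buffered saline). All groups shared a medium with bovine serum albumin. Each array carried RNA pooled from 3 of 9 cows, so pools share cows and p-values measure the spread between pools. Cells given IFNt without LPA were not analysed here.

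These ligands act on receptor tyrosine kinases. FGF2 and FGF10 bind fibroblast growth factor receptors with the help of heparan sulfate, VEGFA acts mainly on KDR and FLT1, VEGFC mainly on FLT4, HGF on MET, and EGF and AREG on EGFR. In the uterus such factors pass between stroma, epithelium and vessels: FGF10 and HGF are classically made by stroma and act on epithelium, and VEGFA and VEGFC are known for the growth of blood and lymphatic vessels. LPA is a signalling lipid with G protein-coupled receptors, and IFNt is the type I interferon of the ruminant embryo.

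Values are deposited log2 signals, and a difference of 1 on this scale is a doubling. As a guide to brightness, the highest value of the bacterial trp control probe sets, which should find no target in cow RNA, was 2.8. A probe set's brightness depends on its probes, so it ranks groups and not genes. Markers of both labelled cell types exceeded this value: the 12 measured epithelial and the 14 measured stromal markers lay above 2.8 by their means, and 0 of 7 endothelial markers did. The epithelial KRT8 was near it, with a mean of 3.37. Among 9 leukocyte markers, CD3E, CSF1R, ITGB2 and TYROBP did not exceed 2.8 on any array, and 5 had means above it (CD14 6.96, LCP1 6.29, PTPRC 3.95, CD68 3.56 and CD53 3.20). CD53 rose in LPA+IFNt by 1.26 over control (limma adjusted p 0.0252) and by 1.15 over LPA (0.0336). These calls were lost in 6 and 8 of 15 alternative fits, with adjusted p up to 0.0974 and 0.107. The median difference of the 9 markers was 0.03 against control and 0.02 against LPA. With the replicate block 1 of the 9 rose and 1 fell in both comparisons. Of 9155 named genes 406 rose and 654 fell against control in that fit, and 455 rose and 701 fell against LPA. The summed linear level of the 9 was 214 to 252 in LPA+IFNt, 275 to 358 in LPA and 241 to 272 in control. The part of leukocyte RNA in the ligand values was not tested. The interferon-induced antiviral gene MX2 separated the labelled groups, with 9.77, 9.56 and 9.79 in LPA+IFNt, 2.14, 2.19 and 2.18 in LPA and 2.12, 2.11 and 2.12 in control. IER2, an immediate early gene, rose in LPA by 1.05 over control (limma adjusted p 0.0106). Without control replicate 2 or LPA replicate 1 that call was lost, as 0 probe sets passed for LPA against control. In LPA+IFNt IER2 differed from control by 0.34 and from LPA by -0.71, both past the threshold. IER2 was chosen with earlier results of these data known. In these mixed cultures fewer cells of a type and less RNA per cell cannot be told apart.

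FGF2, VEGFA, VEGFC and AREG, 4 of the 7 ligands with 6 probe sets, gave signals far above the trp value on every array. The 3 FGF10 probe sets and the EGF probe set did not exceed 2.8 on any array, and HGF, at 2.72 to 3.06, exceeded it on 8 of 9 arrays. No ligand passed the threshold in the fit of all 24016 probe sets on all 9 arrays, and the alternatives in which FGF2 or AREG did are given with those genes. With limma's moderated test and Benjamini-Hochberg adjustment at 0.05, 0 of 11 probe sets passed for LPA+IFNt against control, where 5.34% of all probe sets did. For LPA+IFNt against LPA 0 of 11 passed, against 6.54% of all, and for LPA against control 0 of 11, against 0.0708% of all. A moderated F test over the 3 groups called 0 of 11, against 5.99% of all. With the replicate number as a block 0 of 11 passed in each case, against 8.68% of all for LPA+IFNt against control, 9.66% for LPA+IFNt against LPA, 0.0458% for LPA against control and 9.48% in the F test. An unadjusted limma p under 0.05 was reached by 0 of 11 for LPA+IFNt against control (16.7% of all probe sets), 2 for LPA+IFNt against LPA (17.5%) and 1 for LPA against control (8.3%). The smallest adjusted p was 0.502 for LPA+IFNt against control, 0.0566 for LPA+IFNt against LPA and 0.255 for LPA against control.

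Groups that did not overlap were found for 1 probe set in each comparison. For LPA+IFNt against control this was AREG, lower in LPA+IFNt (12.8% of all probe sets were lower in that way and 10.2% higher). For LPA+IFNt against LPA it was one FGF2 probe set, lower in LPA+IFNt (11.3% of all lower, 7.35% higher). For LPA against control it was the same FGF2 probe set, higher in LPA (5.13% of all higher, 4.91% lower). The median difference over the 11 probe sets was -0.03 for LPA+IFNt against LPA and 0.01 for LPA against control, beside 0.02 and 0.00 over all probe sets.

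**Figure D1:**
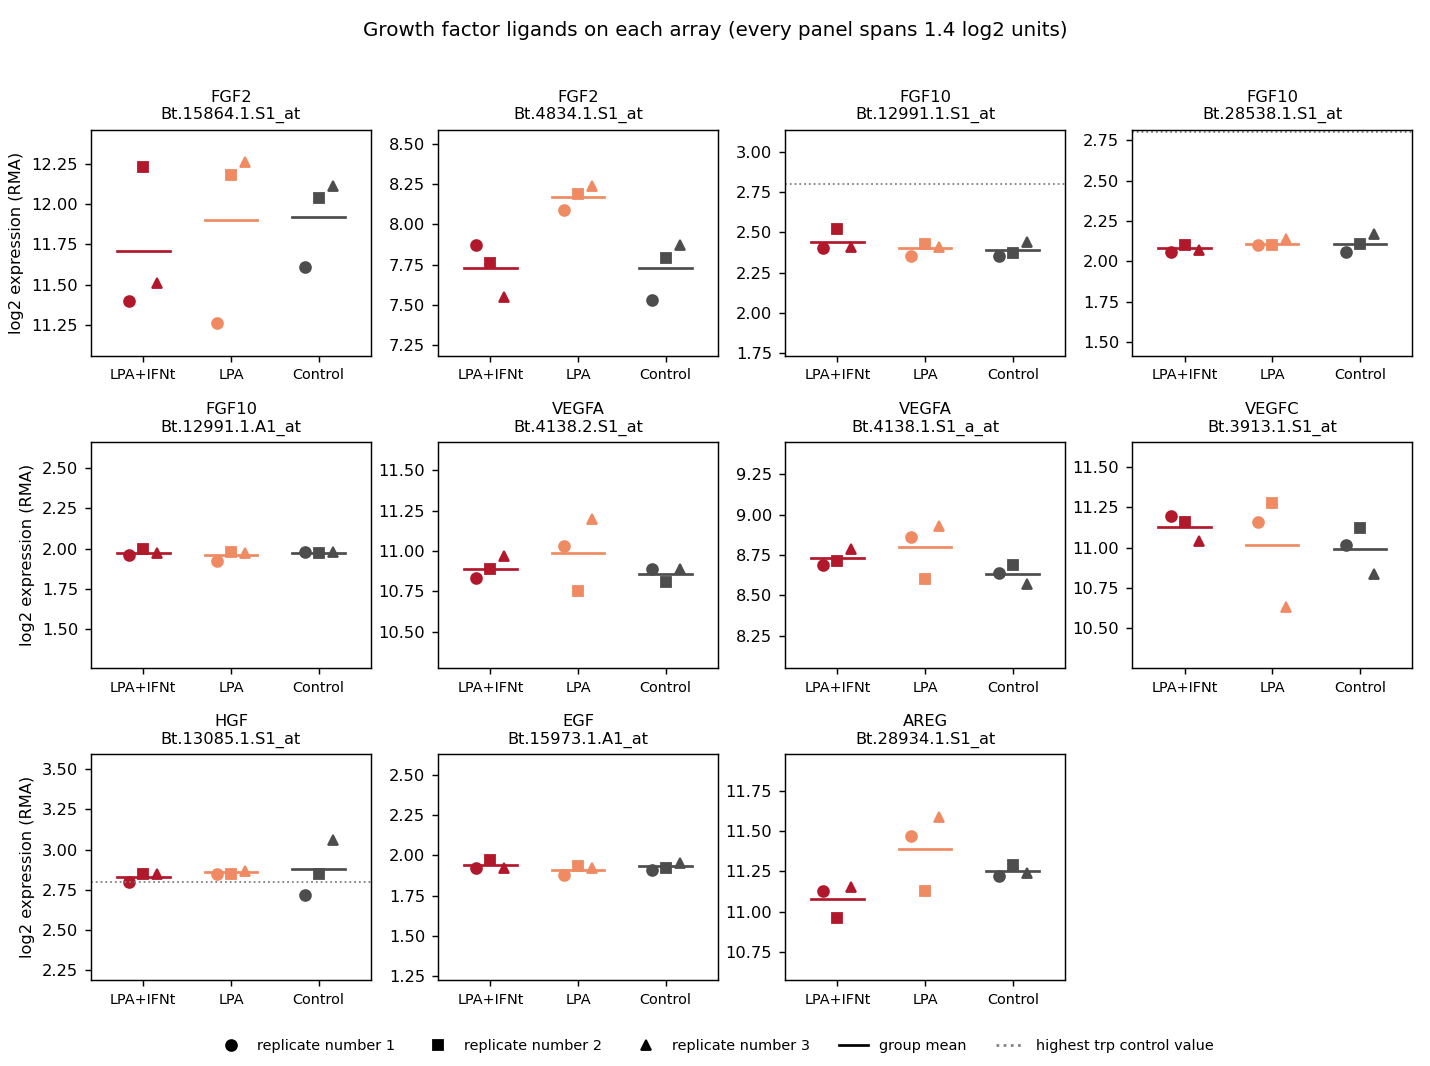
Log2 signal (vertical axis) of each probe set of the 7 ligands on the 9 arrays, grouped as LPA+IFNt, LPA and control. A bar marks the group mean. A dotted line marks the trp control value of 2.8 only in panels whose axis reaches it. FGF10 and EGF sit under 2.8, and HGF lies at it. The 3 arrays of each group mostly overlap with those of the others for FGF2, VEGFA, VEGFC and AREG.

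FGF2, a heparin-binding mitogen made by many cell types including endometrial stroma, was measured by 2 probe sets that behaved differently. The dimmer one read 7.87, 7.76 and 7.55 in LPA+IFNt, 8.09, 8.19 and 8.24 in LPA and 7.53, 7.79 and 7.87 in control. The LPA arrays lay above every array of the other groups, and the LPA+IFNt and control arrays overlapped. This was an LPA over control difference of 0.44 ± 0.11 (SE, 3 arrays per group; 1.36-fold; 95% interval of the difference 0.19 to 0.70), with an adjusted p of 0.255 in limma. LPA+IFNt minus LPA was -0.44 ± 0.11 (0.735-fold, interval -0.70 to -0.19), and its limma adjusted p of 0.0566 was just above the threshold. It was past the threshold without control replicate 1 (0.0349), when only probe sets above the trp value were tested (0.0341) and with a trended robust variance prior (0.0473), but not with the replicate block (0.0877). LPA+IFNt and control had the same mean of 7.73 (0.999-fold, 95% interval 0.838 to 1.19).

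The brighter FGF2 probe set did not show that order. It read 11.40, 12.23 and 11.51 in LPA+IFNt, 11.26, 12.18 and 12.26 in LPA and 11.61, 12.04 and 12.11 in control. All groups overlapped, and the 9 arrays ranged over 1.0 log2. LPA+IFNt differed from control by -0.21 ± 0.32 (limma adjusted p 0.729) and from LPA by -0.18 ± 0.32 (interval -0.93 to 0.56; 0.752). LPA differed from control by -0.02 ± 0.32 (interval -0.77 to 0.73). These intervals include differences as large as those of the dimmer probe set. FGF10, which drives branching and epithelial growth, stayed at background in each group. Its brightest probe set read 2.40, 2.52 and 2.41 in LPA+IFNt, 2.35, 2.43 and 2.41 in LPA and 2.35, 2.37 and 2.44 in control. The other 2 were at 2.06 to 2.17 and at 1.92 to 2.00, and the differences over the 3 probe sets ran from -0.04 to 0.05. Such signals cannot show whether FGF10 mRNA changed.

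VEGFA, the main inducer of vessel growth, was measured by 2 probe sets that followed each other across the arrays. The brighter one read 10.83, 10.89 and 10.97 in LPA+IFNt, 11.03, 10.75 and 11.20 in LPA and 10.89, 10.81 and 10.89 in control. The dimmer one read 8.69, 8.71 and 8.79 in LPA+IFNt, 8.86, 8.60 and 8.93 in LPA and 8.64, 8.69 and 8.57 in control. For both probe sets LPA replicates 1 and 3 were the highest arrays and LPA replicate 2 lay among or below the rest. LPA exceeded control by 0.13 ± 0.10 (1.09-fold, interval 0.927 to 1.29) and by 0.16 ± 0.08 (1.12-fold, 0.979 to 1.28), with limma adjusted p of 0.896 and 0.696. LPA+IFNt against control gave 0.03 ± 0.10 (adjusted p 0.869) and 0.10 ± 0.08 (0.568). LPA+IFNt against LPA gave -0.10 ± 0.10 (0.651) and -0.07 ± 0.08 (0.685). Without LPA replicate 2 the LPA over control differences were 0.25 (adjusted p 0.155) and 0.26 (0.0832), neither past the threshold.

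VEGFC, the lymphatic growth factor, read 11.20, 11.16 and 11.04 in LPA+IFNt, 11.16, 11.28 and 10.63 in LPA and 11.02, 11.12 and 10.84 in control. The groups overlapped, and LPA replicate 3 was the lowest array. LPA+IFNt exceeded control by 0.14 ± 0.16 (1.1-fold, interval 0.847 to 1.44; limma adjusted p 0.649) and LPA by 0.11 ± 0.16 (0.714). LPA exceeded control by 0.03 ± 0.16, a difference smaller than the spread of the LPA arrays (SD 0.35). HGF, the stromal ligand of MET, read 2.80, 2.85 and 2.85 in LPA+IFNt, 2.85, 2.85 and 2.87 in LPA and 2.72, 2.85 and 3.06 in control. Every value lay close to the trp value, and differences were -0.04 to -0.02.

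AREG, an EGFR ligand released by shedding, read 11.13, 10.96 and 11.15 in LPA+IFNt, 11.47, 11.13 and 11.59 in LPA and 11.22, 11.29 and 11.24 in control. All 3 LPA+IFNt arrays lay below all 3 control arrays, whereas LPA+IFNt and LPA overlapped through LPA replicate 2. LPA+IFNt minus LPA was -0.31 ± 0.11 (0.805-fold, interval 0.672 to 0.965; limma adjusted p 0.19) and LPA+IFNt minus control was -0.17 ± 0.11 (0.891-fold, adjusted p 0.502). LPA exceeded control by 0.15 ± 0.11 (1.11-fold, 0.889). Between arrays of the same number, LPA+IFNt minus LPA was -0.34, -0.16 and -0.44, and LPA minus control was 0.25, -0.16 and 0.35. LPA+IFNt minus control was -0.09, -0.32 and -0.09, lower in each. Leaving out LPA replicate 2 moved LPA+IFNt minus LPA to -0.45 with an adjusted p of 0.00987, past the threshold. EGF itself read 1.92, 1.97 and 1.92 in LPA+IFNt, 1.88, 1.93 and 1.92 in LPA and 1.91, 1.92 and 1.95 in control, all under the trp value.

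**Figure D2:**
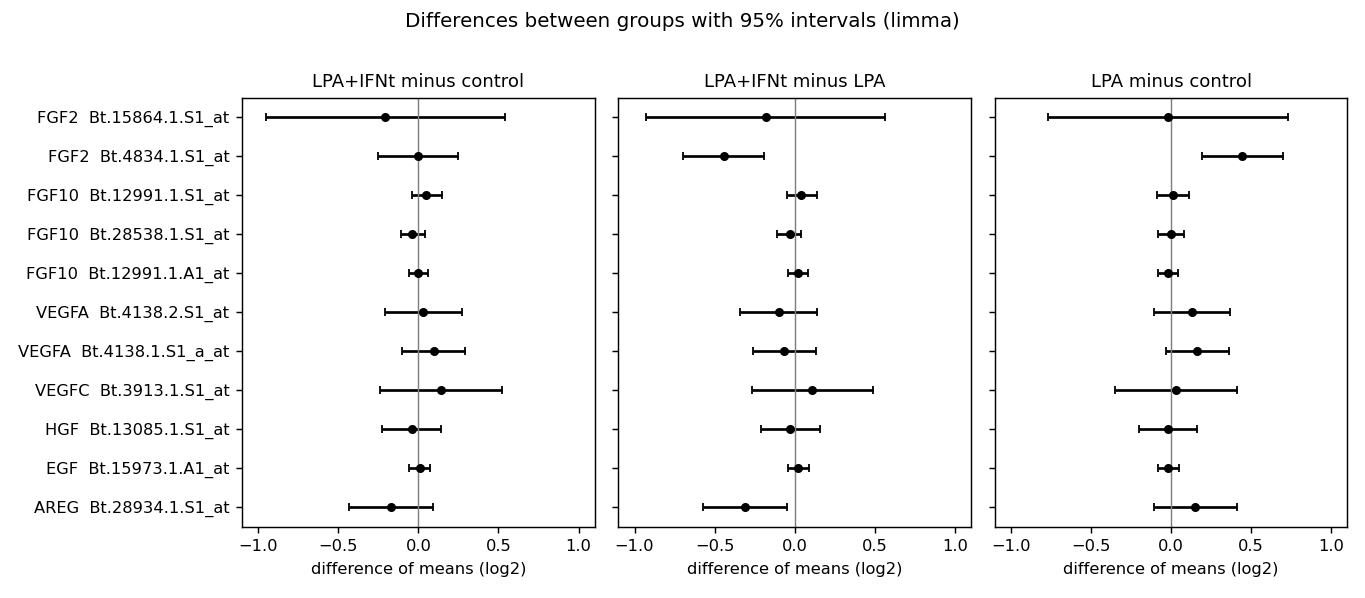
Differences of group means in log2 units (horizontal axis) for each ligand probe set, one panel per comparison, with unadjusted 95% intervals from limma as bars and the brighter probe set of a gene listed first. The intervals of the dimmer FGF2 probe set leave out 0 for LPA against control and LPA+IFNt against LPA, and that of AREG for LPA+IFNt against LPA, but no probe set passed after adjustment.

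Likeness over the 9 arrays is given as a description only, since arrays share groups and cows. Among 4146 bright, variable named probe sets, the brighter FGF2 probe set followed 1 of the 3 LDHA probe sets (Pearson r 0.982), ACTR10 (0.964) and RNFT1 (0.954) most closely. That LDHA probe set had a mean of 11.97. The brightest LDHA probe set, with a mean of 14.70, ranged over only 0.21 log2 and was not among those compared. AREG followed SMOC2 (0.983), LAMA4 (0.979) and BPHL (0.975), and VEGFC followed PURB (0.962), FST (0.926) and UCHL1 (0.921).

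None of the 13 measured receptors passed in any comparison, and 6 had means above the trp value. Among all named genes 3.43% were higher and 3.13% lower for LPA+IFNt against control, 3.75% higher and 4.16% lower for LPA+IFNt against LPA, and 0.12% were called for LPA against control. Their median difference was 0.04 for LPA+IFNt against control, 0.02 for LPA+IFNt against LPA and 0.02 for LPA against control, beside -0.01, 0.01 and 0.00 over all named genes. MET, the HGF receptor, read 8.89, 8.70 and 8.83 in LPA+IFNt, 9.22, 8.85 and 9.42 in LPA and 8.56, 8.77 and 8.81 in control. All LPA arrays lay above all control arrays, by 0.45 on average (limma adjusted p 0.432). FGFR1 had 5.48, 5.11 and 5.50 in LPA+IFNt, 6.15, 5.53 and 5.95 in LPA and 5.55, 5.55 and 5.22 in control. The control arrays overlapped with both other groups (LPA minus control 0.44, adjusted p 0.585). All LPA+IFNt arrays lay below all LPA arrays (LPA+IFNt minus LPA -0.52, limma adjusted p 0.183). FGFR2, which binds FGF10 through its epithelial isoform, had 7.59 to 8.02 in LPA+IFNt, 7.15 to 8.03 in LPA and 7.86 to 8.40 in control, with all groups overlapping (LPA minus control -0.54, adjusted p 0.637). The VEGF receptors KDR and FLT4 had group means of 2.41 to 2.46 and 1.77 to 1.81, under the trp value, and FLT1 had 3.38 to 3.45. EGFR, the receptor of AREG and EGF, had means of 2.83 in LPA+IFNt, 2.80 in LPA and 2.82 in control, near the trp value. ERBB2 was not named singly on the array. An mRNA signal near background on a 3' array does not show that the receptor is missing.

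**Figure D3:**
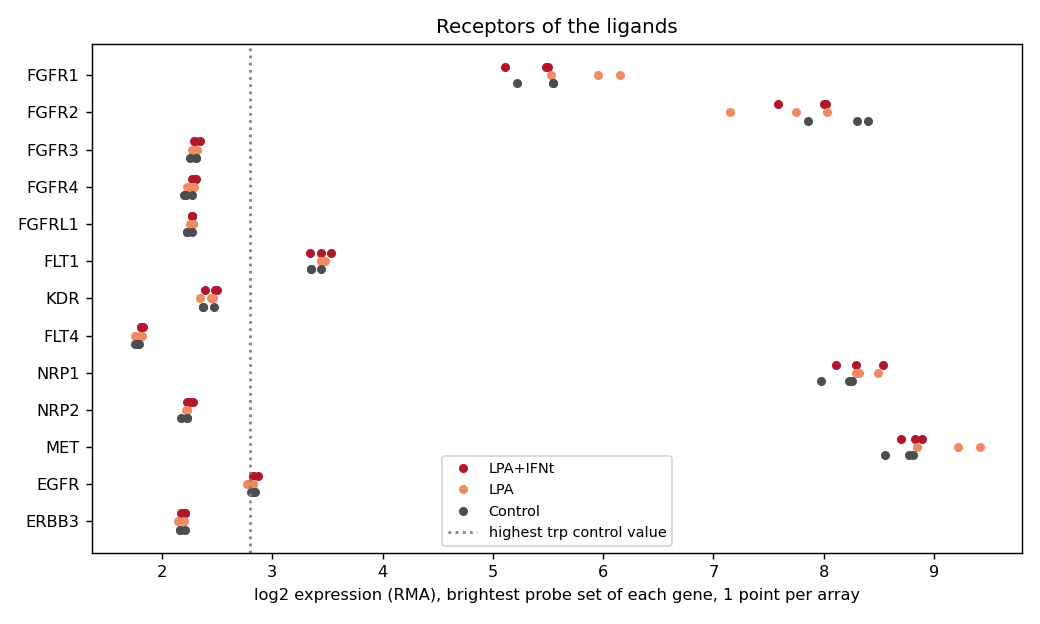
Log2 signal (horizontal axis) of the brightest probe set of each measured receptor on the 9 arrays, coloured as LPA+IFNt, LPA and control, with the trp value of 2.8 as a dotted line. NRP1, MET, FGFR2 and FGFR1 lie well above the line, and KDR, FLT4, FGFR3, FGFR4 and ERBB3 lie under it.

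Of 13 other measured members of the ligand families, counted with the FGF-binding protein FGFBP1 and each by its brightest probe set, 1 rose and 1 fell with LPA+IFNt in each of its comparisons, and 0 changed with LPA against control. Of all named genes 3.43% were higher and 3.13% lower against control, and 3.75% higher and 4.16% lower against LPA. For LPA against control 0.12% were called. The median difference of the 13 was 0.03 in both LPA+IFNt comparisons, and 6 of them had means above the trp value. HBEGF, TGFA, EREG and EPGN had no probe set named for them alone. Betacellulin (BTC), an EGFR and ERBB4 ligand whose gene stands next to AREG in the RefSeq annotation, rose. It read 4.84, 4.59 and 4.87 in LPA+IFNt, 3.83, 3.54 and 3.28 in LPA and 3.66, 3.87 and 3.56 in control. The difference was 1.07 ± 0.15 (SE) over control (2.1-fold, limma adjusted p 0.00577) and 1.22 ± 0.15 over LPA (2.33-fold, 0.003), and it was called under each alternative run. VEGFB, a FLT1 ligand, fell. It read 7.09, 7.14 and 7.05 in LPA+IFNt, 7.60, 7.55 and 7.76 in LPA and 7.48, 7.56 and 7.61 in control. The differences were -0.46 ± 0.06 against control (0.729-fold, adjusted p 0.0046) and -0.54 ± 0.06 against LPA (0.686-fold, 0.0018), and with spike-in centring the first was -0.39 (0.122). FGF1, the acidic relative of FGF2, had 12 probe sets. Those with means of 1.37 to 2.32 were under the trp value on every array and cannot show whether FGF1 changed. Among the 12, 1 was called. That probe set read 6.54, 6.25 and 6.59 in LPA+IFNt, 7.55, 6.95 and 7.94 in LPA and 6.35, 6.32 and 6.54 in control. It fell in LPA+IFNt against LPA by 1.02 ± 0.23 (adjusted p 0.0409), and the LPA over control difference was 1.08 ± 0.23 (0.195). The call against LPA was lost in 10 of 15 fits, with an adjusted p of 0.0675 to 0.138 when any 1 array other than LPA replicate 2 was left out. With the gene's probe sets averaged it was 0.168. Without LPA replicate 2 the LPA over control difference was 1.34 (0.0261), and with spike-in centring 1.11 (0.0467). The brightest FGF1 probe set gave -0.49 (0.385) and 0.56 (0.616) for these 2 comparisons.

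Genes that process ligands or carry them at the cell surface were counted next, each by its brightest probe set. Among 13 measured processing genes and inhibitors 0 changed for LPA+IFNt against control or LPA against control, and 1 fell for LPA+IFNt against LPA (4.16% of named genes lower). The list's median difference was 0.04, -0.03 and 0.06 for LPA+IFNt against control, LPA+IFNt against LPA and LPA against control. The gene that fell was SPINT2, an inhibitor of the proteases that activate HGF, with 11.31, 11.32 and 11.34 in LPA+IFNt, 11.79, 11.65 and 11.88 in LPA and 11.30, 11.23 and 11.34 in control. LPA+IFNt minus LPA was -0.45 ± 0.06 (limma adjusted p 0.00457). LPA exceeded control by 0.49 (adjusted p 0.0566, past the threshold in 4 of 15 fits, among them that without LPA replicate 2, 0.0124) and LPA+IFNt exceeded it by 0.04 (0.75). The LPA arrays stood above both other groups, as they did for the dimmer FGF2 probe set. SPINT2 is also on the epithelial marker list, whose mean log2 level ran over 10.70 to 10.83 in LPA+IFNt, 10.71 to 10.80 in LPA and 10.67 to 10.82 in control.

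Of 10 measured heparan sulfate genes 3 fell with LPA+IFNt against control, and 1 of them also against LPA. Of all named genes 3.13% were lower against control and 4.16% against LPA. The median of the list was -0.19 against control and -0.11 against LPA, and -0.07 for LPA against control, where 0 passed. The syndecan core protein SDC2 read 10.63, 10.71 and 10.58 in LPA+IFNt, 11.10, 11.23 and 11.20 in LPA and 11.19, 11.08 and 11.09 in control. It fell by 0.48 ± 0.05 against control (limma adjusted p 0.00181) and 0.54 ± 0.05 against LPA (0.000962), and its other probe set fell by 0.33 against LPA (0.0456) and differed from control by -0.17 (0.314). That second call was lost in 9 of 15 fits, with adjusted p of 0.0707 to 0.144 when any 1 array other than LPA replicate 2 or LPA+IFNt replicate 1 was left out. The 6-O-sulfotransferase HS6ST1 fell by 0.46 ± 0.07 against control (0.0123), and the extracellular sulfatase SULF2 by 0.28 ± 0.06 (0.0286; 0.0522 with the replicate block). For both genes the LPA arrays also lay below all control arrays. LPA minus control was -0.30 for HS6ST1 (limma adjusted p 0.262) and -0.19 for SULF2 (0.377). LPA+IFNt minus LPA was smaller, at -0.16 (0.347) and -0.09 (0.51), with overlapping groups. With spike-in centring the adjusted p against control was 0.0688 for SDC2, 0.0996 for HS6ST1 and 0.495 for SULF2. Without control replicate 1 or 2 HS6ST1 had 0.0513 and 0.0556 against control. SULF2 missed the threshold in 10 of 15 fits, among them those without control replicate 2 (0.0985) or 3 (0.0895), LPA replicate 1 (0.0515) or LPA+IFNt replicate 1 (0.0514), 2 (0.0942) or 3 (0.0944).

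Among 10 measured adaptor and RAS-MAPK genes, SHC1, an adaptor for EGFR and related receptors, was the 1 called for LPA+IFNt against LPA, where 3.75% of named genes were higher. It rose by 0.30 in one probe set (limma adjusted p 0.0036; 0.0105 with the replicate block) and by 0.26 in its brightest (adjusted p 0.0353; 0.063 with the block), with the LPA+IFNt arrays above the LPA arrays in both. The first was lost in 2 of 15 fits, with spike-in centring (0.113) and with the 3 probe sets averaged (0.112). The brightest missed the threshold in 10 of 15 fits, among them those without control replicate 1 (0.0599) or 2 (0.0542), LPA replicate 1 (0.121) or 3 (0.0959) and LPA+IFNt replicate 1 (0.102) or 3 (0.101). With spike-in centring the brightest had 0.215. The list's median was -0.10 for LPA+IFNt against control, -0.05 for LPA+IFNt against LPA and -0.08 for LPA against control. Of 12 measured feedback and target genes of these receptors 1 fell in both LPA+IFNt comparisons, with list medians of 0.06 against control and 0.04 against LPA. Of all named genes 3.13% were lower against control and 4.16% against LPA. With the replicate block 1 of the 12 rose and 2 fell against LPA, where 455 of 9155 named genes rose and 701 fell. The added ones, named after their values were seen, were the cyclin CCND1 (0.64; adjusted p 0.0481 with the block, 0.381 without) and the immediate early gene IER3 (-0.32; 0.0465 with the block, 0.198 without). EGR1, an immediate early transcription factor, read 9.41, 9.36 and 9.48 in LPA+IFNt, 9.72, 9.68 and 9.77 in LPA and 9.63, 9.67 and 9.62 in control. It fell by 0.30 against LPA (adjusted p 0.00385) and 0.22 against control (0.0174). Its other probe set, with a mean of 1.38, was under the trp value on every array and cannot show whether EGR1 changed. That probe set differed by 0.01 in both comparisons (0.856 and 0.851). For the brighter probe set the value against LPA was -0.28 (0.215) with spike-in centring. Its call against control was lost in 7 of 15 fits, among them those without control replicate 1 (0.0558) or 2 (0.078) and LPA+IFNt replicate 1 (0.0631) or 2 (0.0521). The same call had a limma adjusted p of 0.722 with spike-in centring and 0.101 with the trended robust prior.

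Of 15 measured hypoxia and angiogenesis genes 2 fell in both LPA+IFNt comparisons, with list medians of -0.01 against control and -0.11 against LPA. Of all named genes 3.13% were lower against control and 4.16% against LPA. EPAS1, a hypoxia-inducible factor that can drive VEGFA, read 11.54, 11.54 and 11.50 in LPA+IFNt, 12.20, 12.02 and 12.41 in LPA and 12.05, 12.37 and 12.29 in control. It fell by 0.71 ± 0.11 against control (limma adjusted p 0.00996) and 0.68 ± 0.11 against LPA (0.0107). VEGFA was not called in these comparisons, and a link of EPAS1 with VEGFA was not tested. The other EPAS1 probe set also fell against control (by 0.74, 0.0276, and 0.054 with the replicate block) and against LPA (by 0.77, 0.0217). These 2 calls were lost in 7 and 5 of 15 fits, with adjusted p up to 0.105 and 0.0786. Thrombospondin 2 (THBS2), a matrix inhibitor of vessel growth, had 10.44, 10.24 and 10.47 in LPA+IFNt, 11.32, 11.19 and 11.32 in LPA and 10.98, 11.10 and 10.99 in control. It fell by 0.64 ± 0.07 against control (0.00184) and 0.89 ± 0.07 against LPA (0.000307). Its relative THBS1 had 6 probe sets that did not move alike, and its brightest differed from control by 0.05 (0.611) in LPA+IFNt. One THBS1 probe set read 10.97, 10.82 and 10.92 in LPA+IFNt, 9.73, 10.08 and 9.65 in LPA and 10.54, 11.08 and 10.99 in control. It rose in LPA+IFNt by 1.08 ± 0.16 against LPA (2.12-fold, adjusted p 0.00751), and this call was lost when the gene's probe sets were averaged (0.155). LPA minus control was -1.05 (0.0766), past the threshold in 4 of 15 fits, among them that without LPA replicate 2 (0.039). Another fell in LPA+IFNt by 0.28 against control (0.0386), a call lost in 9 of 15 fits, with adjusted p of 0.0593 to 0.122 when any 1 array other than LPA replicate 1 or 3 was left out. With spike-in centring this call had 0.321, and with the gene's probe sets averaged 0.847.

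Beside the falls of VEGFB, SDC2, EPAS1 and THBS2, the summed linear level of the 14 stromal markers was 117597 to 121550 in LPA+IFNt, 136665 to 149879 in LPA and 131620 to 142229 in control. Of the 14, 3 fell against control and 5 against LPA, where 3.13% and 4.16% of all named genes were lower. The part of these stromal markers in the values of VEGFB, SDC2, EPAS1, THBS2, FGF2 or AREG was not tested.

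**Figure D4:**
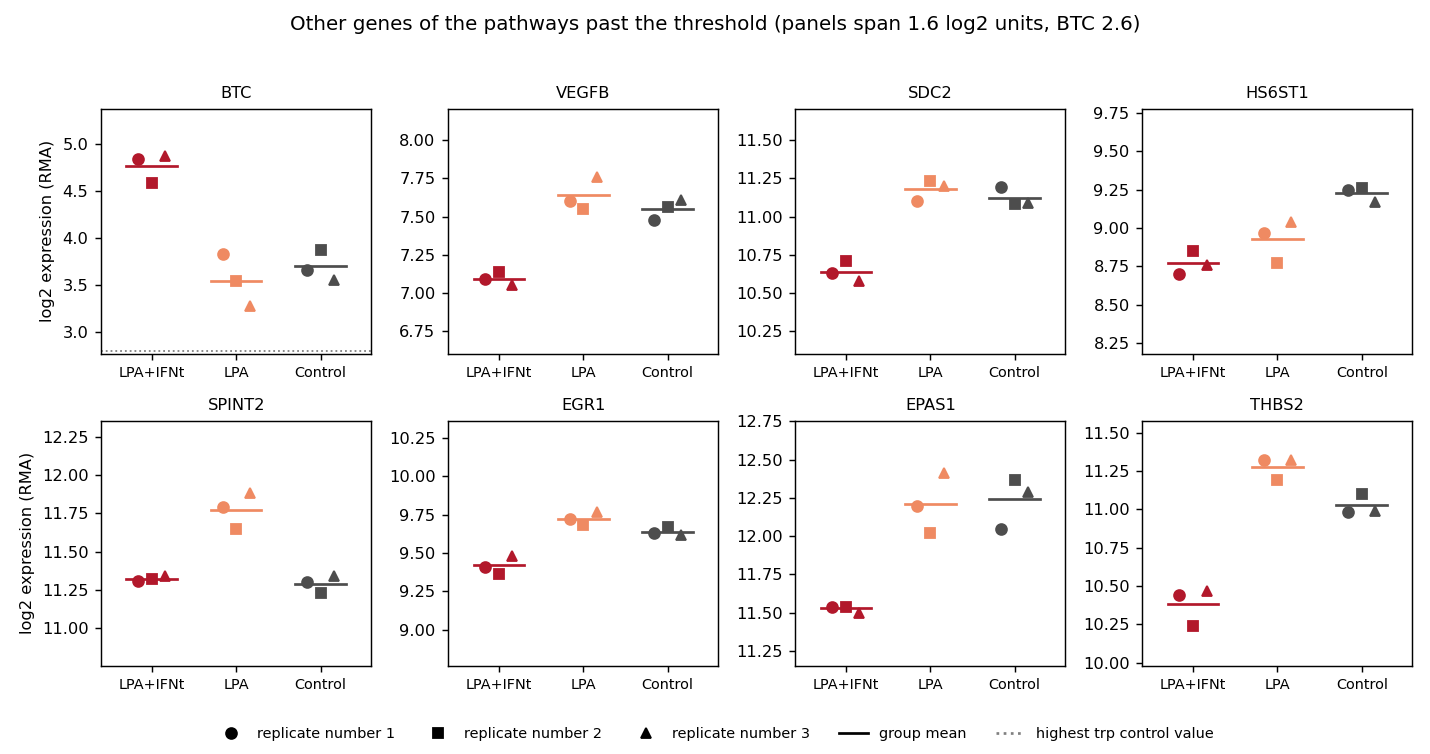
Log2 signal (vertical axis) on each array for other ligands and pathway genes named in the text, grouped as LPA+IFNt, LPA and control, with group means as bars. BTC is higher in LPA+IFNt (4.59 to 4.87) than in the other groups, and VEGFB, SDC2, EPAS1 and THBS2 are lower.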

How the data were processed

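Per the labels' protocols, RNA of 9 pools of endometrial co-culture (100 ng each) was labelled with biotin and hybridised to 1 array each. Per the submitters' processing notes the authors made the deposited log2 values by RMA, using Partek. Neither version is known here, and base 2 is inferred from the values' range. RMA makes array distributions alike (medians 4.29 to 4.37), so a shift of most transcripts would be hidden. The number of arrays limits precision.

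From these values, 112 control probe sets were left out and 24016 compared by limma (version 3.58.1, under R 4.3.3; lmFit and eBayes, two-sided) over all 9 arrays without covariates, adjusted by Benjamini-Hochberg over 24016 probe sets at 0.05. The code was tested on simulated data. Array annotation gave 13292 probe sets 1 symbol, 86 several and 10638 none, and 13263 gene identifiers were found in the RefSeq table of ARS-UCD2.0, which changed 0 symbols. A gene outside the 7 ligands stands by its brightest probe set, except in likeness, where any bright, variable probe set of a gene could be the match. The members and lists were chosen with earlier results of these data known. From each list the text names genes with a called probe set (at most 6) or else up to 2 with the smallest p, and some receptors always. Likeness was computed for ligands ranging over at least 0.5 log2.

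Same-numbered arrays of different groups deviated together (9 of 9 pairs, r 0.19 to 0.491; other pairs -0.468 to 0.141), so the numbers were taken to pair the samples. Alternatives were the replicate block, centring on 9 spike-in probe sets, only probe sets above the trp value, a trended robust prior, only the 2 groups compared, averaged probe sets and leaving out each array.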

Additional observations from a re-analysis of the deposited data

How the results depend on the processing

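Of 483 recomputed ligand values, none called in the fit as reported, 4 crossed the threshold: the dimmer FGF2 probe set for LPA+IFNt against LPA under 3 alternatives and AREG without LPA replicate 2. In the count of ligands called for LPA+IFNt against LPA, 1 probe set was called with only probe sets above the trp value, 1 with the trended robust prior and 0 to 1 when leaving out an array. The F test called 1 with only probe sets above the trp value (FGF2, adjusted p 0.0434) and 0 to 1 when leaving out an array (AREG without LPA replicate 2, 0.0221). Signs changed in 38 values that were uncalled in both settings. Of 945 values of the other named probe sets 840 kept their side of the threshold, 90 calls were lost, 15 were gained and 0 reversed. Over all probe sets, LPA against control had 17 calls, and 11 with the replicate block, 50 with spike-in centring, 37 above the trp value, 50 with the trended robust prior, 1 with only the 2 groups and 28 with averaged probe sets. Leaving out an array gave 0 to 169: 0 without control replicate 2 or LPA replicate 1 (1520 and 1739 at an unadjusted p under 0.05 in limma), 8 without control replicate 1, 28 without control replicate 3, 169 without LPA replicate 2, and 11 without LPA+IFNt replicate 1 or 3. For LPA+IFNt against control, 1282 calls became 2085 with the replicate block and 791 to 1352 without an array, lowest without control replicate 2. For LPA+IFNt against LPA, 1571 became 1004 with only the 2 groups and 954 to 2204 without an array, lowest without LPA replicate 1. The F test's 1439 became 2276 with the block and 911 to 1997 without an array (911 without LPA+IFNt replicate 1, 933 without LPA+IFNt replicate 3). The replicate block called 0 of the 11 ligand probe sets in every comparison. Signals under the trp value (FGF10, EGF) or close to it (HGF) limit what can be seen of those ligands.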
